A study of Mus musculus with 11 samples.

Results

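The genes described here encode the subunits of RNA polymerase II and the proteins that travel with it through the body of a gene. They are 36 genes, taken by symbol from a count table of 55291 genes, and all 36 had enough counts to be tested. Total RNA was sequenced from E14 cells, an embryonic stem cell line of the mouse, kept feeder-free in serum and LIF plus a GSK3 inhibitor (CHIR99021) and a MEK inhibitor (PD0325091). In 2 independently targeted lines, coded 10E and 11D in the table, SPT16 ends in a V5 tag followed by an auxin-inducible degron (AID). The degron marks the protein for degradation when cells that hold the plant receptor TIR1 are given auxin (indole-3-acetic acid, IAA). SPT16 and SSRP1 form FACT, a histone chaperone that takes nucleosomes apart and puts them back as polymerases pass. Tagged cells received 500 nM IAA or an equal volume of ethanol (EtOH) for 24 hours, which gave 4 EtOH libraries (2 of 10E and 2 of 11D) and 3 IAA libraries (1 of 10E and 2 of 11D). Cells of an untagged line received the same IAA and gave 3 libraries. The columns of that line carry the code TIR1 and were assigned to it because no other line has IAA columns alone. The untagged line has no EtOH libraries, the table holds 10 libraries where the labels list 11 samples, and line codes could not be tied to the clone numbers of the labels. Whether replicates were separate cultures is not stated, so the p-values measure the spread between these libraries, which may be technical.

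RNA polymerase II is built from subunits of its own and from a set of small subunits that it shares with RNA polymerases I and III. After initiation it is held near the start of many genes by SPT4-SPT5 (also called DSIF) and NELF. It is released when kinases phosphorylate these factors and the C-terminal domain (CTD) of its largest subunit. During elongation it carries SPT6, IWS1 and the PAF1 complex, is sped up by ELL and EAF proteins, is rescued from backtracking by TFIIS, and is phosphorylated further by CDK12 and CDK13 with cyclin K. SETD2 binds the phosphorylated CTD and trimethylates lysine 36 of histone H3 behind the polymerase.

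The libraries held 3100127 to 13510163 counts. Together the 36 genes made up 0.406% to 0.457% of an EtOH library, 0.553% to 0.567% of a tagged IAA library and 0.417% to 0.442% of an untagged library. Values below are CPM, read counts brought to a common library size, after scaling by TMM, a method that sets the scale so that the bulk of genes shows no change. TMM factors were 0.885 to 0.983 in EtOH and at least 1.13 in tagged IAA libraries. Scaling by library totals instead raised the log2 fold change of IAA against EtOH by 0.33 at the median gene, so every change below is relative to the bulk of genes. The mitochondrial share was 1.67% to 2.26% for EtOH, 2.45% to 3.16% for tagged IAA and 2.28% to 2.73% for untagged cells. Summed over 10 embryonic stem cell markers, the level was 7633 to 9435 CPM for EtOH, 3022 to 3388 CPM for tagged IAA and 8042 to 8639 CPM for untagged cells. Sums for 8 fibroblast or feeder markers (23.4 to 36.4, 19.7 to 25.7 and 22.9 to 31.2 CPM, with 3 of the 8 under 1 CPM everywhere) and 5 trophoblast markers (50.7 to 63.5, 54.2 to 69.5 and 44.7 to 54.4 CPM) overlapped between EtOH and tagged IAA. Sums for 4 neural markers were 59.1 to 68.2, 76.1 to 105 and 50.0 to 65.9 CPM, and for 5 primitive endoderm markers 3.11 to 8.25, 7.41 to 11.8 and 3.26 to 6.71 CPM. No marker was at 0 in every library. The part of these shifts in the results below was not tested, and in bulk RNA fewer cells of a type cannot be told apart from less RNA per cell. The degron acts on the protein, so the Supt16 transcript does not check the labels. It stood at 364 to 416 CPM for EtOH, 253 to 286 CPM for tagged IAA and 538 to 577 CPM for untagged cells (log2 fold change of IAA against EtOH -0.50 ± 0.09 SE, FDR 0.000154; not passing on library totals, at -0.17, or without the libraries under 5 M counts, at -0.46), and 21.0% of its exonic bases overlap Rpgrip1 on the opposite strand. Ssrp1 fell from 309.9 ± 22.6 (SD, n = 4) to 146 ± 4.43 CPM (SD, n = 3).

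After 24 hours of IAA the transcription elongation genes moved in both directions. The scaffold pair of the PAF1 complex (Ctr9 and Paf1), the small polymerase subunit gene Polr2l, Supt4a and 4 of 5 ELL and EAF genes rose, while Ell2, Tcea3, Cdk13, Setd2 and 3 polymerase subunit genes (Polr2i, Polr2e and Polr2f) fell. Polr2a, which encodes the largest and catalytic subunit, and all 4 NELF genes did not pass the test. In all, 12 of the 36 genes gave a higher and 9 a lower call for IAA at a false discovery rate (FDR, Benjamini-Hochberg over 17904 genes) under 0.05 in edgeR's quasi-likelihood test, and 15 did not pass. Across all genes tested, 29.3% were higher and 28.1% lower, so both shares are near the background. The median log2 fold change was 0.06 over the 36 genes and 0.03 over all genes. Every IAA library lay beyond every EtOH library for 18 of the 36 genes (11 above and 7 below), against 52.4% of all genes. Scaled by library totals, 22 genes were higher and 3 lower (43.1% and 15.9% of all genes), and all 12 higher genes but only Ell2, Tcea3 and Cdk13 of the 9 lower ones passed. The authors' deposited table of the same comparison calls 12 of the genes higher and 7 lower (18.8% and 17.8% of its genes with an adjusted p-value) and gives the same call as the edgeR fit for 32 of 36. Over 16 alternative settings, 7 of the higher genes (Polr2l, Supt4a, Paf1, Ctr9, Ell, Eaf1 and Eaf2) and 3 of the lower genes (Ell2, Tcea3 and Cdk13) passed in each. The share of all genes that passed in each setting was not counted, so these counts do not set the 36 genes apart. The setting without the libraries under 5 M counts leaves a single tagged IAA library (11D replicate 2).

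**Figure D1:**
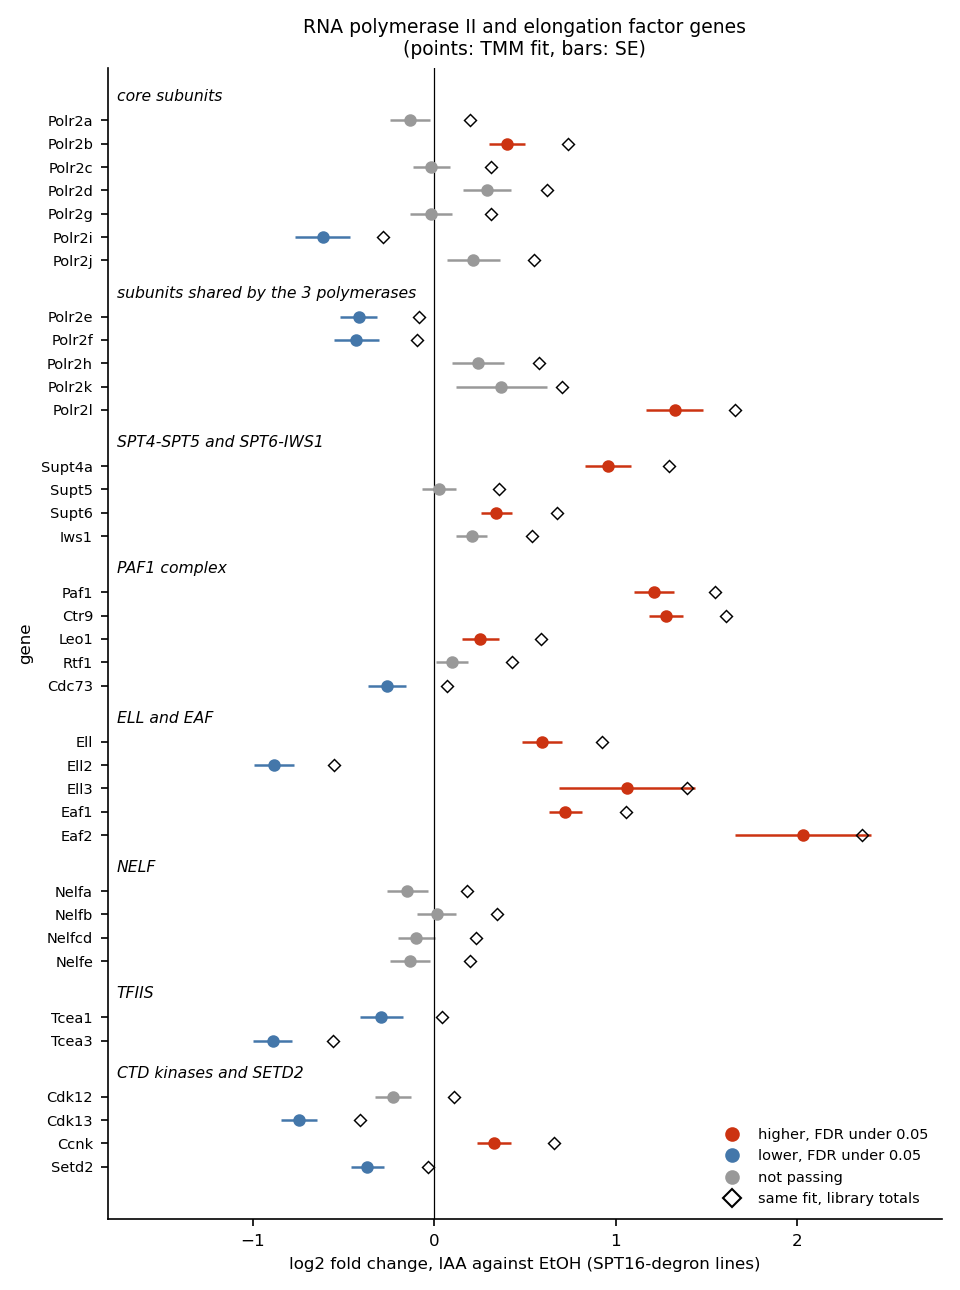
Log2 fold change of IAA against EtOH in the SPT16-degron lines for the 36 genes, grouped by role (filled points with SE bars: TMM fit, red higher, blue lower and grey not passing at FDR under 0.05; open diamonds: the same fit on library totals). The open diamonds lie about 0.33 to the right of the points, and Eaf2 (2.03), Polr2l (1.33), Ctr9 (1.28) and Paf1 (1.21) stand at the right end.

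Among the 7 genes for subunits found in RNA polymerase II alone, 1 was higher, 1 was lower and 5 did not pass (median log2 fold change -0.02). Polr2a (chr11:69733997-69758637, minus strand, GRCm38) encodes the subunit that holds the active site and the CTD, and was the most abundant of the 36 genes per kilobase of exon in both groups. Its values were 1249 and 1503 CPM in 10E and 1099 and 1185 CPM in 11D under EtOH, 1126 CPM in 10E and 1185 and 1067 CPM in 11D under IAA, and 1021, 1286 and 1109 CPM in untagged cells. The groups overlapped, and the log2 fold change was -0.13 ± 0.11 (SE, FDR 0.303). It was 0.20 on library totals, a scaling that raised the median gene by 0.33. Polr2b encodes the second largest subunit, which closes the active-site cleft opposite the first, and it rose. It stood at 209 and 248 CPM in 10E and 239.7 and 262 CPM in 11D under EtOH, and at 316 CPM in 10E and 288 and 359.8 CPM in 11D under IAA. All 3 IAA libraries were above all 4 EtOH libraries (log2 fold change 0.40 ± 0.10, FDR 0.00234). Without the libraries under 5 M counts, which leaves a single IAA library, Polr2b did not pass at a larger estimate (0.45). The untagged libraries (251, 235 and 253 CPM) lay within the EtOH range. Polr2i, for a subunit that acts in transcript cleavage and fidelity, fell. Its EtOH libraries gave 32.2 and 37.4 CPM in 10E and 32.4 and 24.6 CPM in 11D, its IAA libraries 20.2 CPM in 10E and 21.9 and 18.5 CPM in 11D, and the untagged libraries 20.4, 28.6 and 29.8 CPM. Every IAA library was below every EtOH library (-0.61 ± 0.15, FDR 0.00251), while the untagged values spanned both groups. The call on Polr2i was lost on library totals (-0.28), without the 10E IAA library (-0.49, FDR 0.055) and without the libraries under 5 M counts (-0.43), and 26.8% of its exonic bases overlap Tbcb on the opposite strand. Polr2c and Polr2j, for subunits that form the assembly platform of the enzyme, gave log2 fold changes of -0.02 and 0.22. Polr2d and Polr2g, for the stalk through which the nascent RNA leaves, gave 0.29 (FDR 0.0733) and -0.02. All 4 passed on library totals (0.32 for Polr2c, 0.55 for Polr2j, 0.62 for Polr2d and 0.31 for Polr2g). Polr2d also passed with edgeR's RLE factors (0.33) and without 10E EtOH replicate 2 (0.38) or the 10E IAA library (0.45). The sign for Polr2c and Polr2g depended on the scaling, since DESeq2 and RLE factors gave 0.02 for both.

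The 5 subunits shared by the 3 polymerases did not move together: 1 gene was higher, 2 were lower and 2 did not pass (median 0.24). Polr2l, whose small zinc-binding product sits at the base of the assembly platform, had the second highest called fold change of the 36 genes. This gene (chr7:141471860-141475132, minus strand) stood at 11.3 and 11.1 CPM in 10E and 12.1 and 9.05 CPM in 11D under EtOH, at 31.4 CPM in 10E and 25.1 and 22.7 CPM in 11D under IAA, and at 6.48, 8.26 and 8.29 CPM in untagged cells. The IAA libraries were all above the EtOH libraries, and the untagged libraries were below both (log2 fold change 1.33 ± 0.16, FDR 3.07e-06). These levels rest on 28 to 351 counts per library. Polr2f, for a subunit at the foot of the clamp, fell. It gave 55.3 and 54.0 CPM in 10E and 52.9 and 39.4 CPM in 11D under EtOH, 38.4 CPM in 10E and 33.1 and 36.7 CPM in 11D under IAA, and 37.0, 33.0 and 42.6 CPM in untagged cells (-0.43 ± 0.12, FDR 0.00765). Its lowest EtOH library, 11D replicate 2, lay just above the highest IAA library, and the untagged libraries overlapped both groups. Polr2e, for the subunit that grips the incoming DNA, also fell, from 125 ± 16.9 (SD, n = 4) to 92.1 ± 2.11 CPM (SD, n = 3), with -0.42 ± 0.10 (FDR 0.00257). Both lower calls were lost on library totals (-0.10 for Polr2f and -0.08 for Polr2e), without the 10E IAA library (-0.37 and -0.27) and without the libraries under 5 M counts (-0.11 and -0.24). For Polr2f it was also lost without the EtOH libraries richest in the transcript CT010467.1 (-0.33). Polr2h (0.24) and Polr2k (0.37), the latter at 3.11 to 5.30 CPM in tagged cells, did not pass except on library totals (0.58 and 0.70).

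SPT4 and SPT5 form DSIF, which clamps the polymerase onto DNA and takes part both in pausing and in elongation. The gene for the small partner rose and that for the large one did not pass. Supt4a (chr11:87737552-87743623, plus strand) gave 20.2 and 24.5 CPM in 10E and 21.2 and 21.2 CPM in 11D under EtOH, 41.0 CPM in 10E and 41.3 and 44.9 CPM in 11D under IAA, and 26.6, 24.4 and 23.8 CPM in untagged cells. The IAA libraries stood clear of all others (0.96 ± 0.13, FDR 9.42e-06). Supt5 was at 281 ± 22.0 CPM in EtOH and 284 ± 15.5 CPM in IAA, a log2 fold change of 0.03 ± 0.09 (FDR 0.819), which turned to -0.01 without a filter on low counts and passed on library totals (0.36). SPT6 is a histone chaperone that binds the moving polymerase, and IWS1 is its partner. Supt6 rose from 341 ± 31.3 to 425 ± 23.3 CPM (0.34 ± 0.08, FDR 0.00246). Without the libraries under 5 M counts, which leaves a single IAA library, that call was lost at a larger estimate (0.45). Iws1 was at 155 ± 6.89 CPM in EtOH and 182 ± 13.8 CPM in IAA (0.21, FDR 0.0528). Its IAA libraries were all above its EtOH libraries. Iws1 passed with DESeq2 (0.24), on RLE factors (0.24), on library totals (0.54) and with a term for replicate number (0.23). It also passed without 10E EtOH replicate 2 (0.23) or 11D EtOH replicate 2 (0.25). Of the 4 genes, 2 were higher and none lower, with a median of 0.27.

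The PAF1 complex binds elongating polymerase and helps to place ubiquitin on histone H2B and methyl groups on histone H3. Its 5 genes gave 3 higher calls, 1 lower call and 1 that did not pass (median 0.26), and the sizes were unequal. Ctr9 (chr7:111028951-111056377, plus strand) encodes the scaffold on which the complex is built, and had the smallest FDR of the 36 genes. In EtOH it stood at 95.7 and 114 CPM in 10E and 101 and 109.5 CPM in 11D, in IAA at 235 CPM in 10E and 262 and 279.6 CPM in 11D, and in untagged cells at 96.5, 103 and 99.6 CPM. All IAA libraries lay far above those of the other groups (1.28 ± 0.09, FDR 2.19e-08). Paf1 (chr7:28392951-28399388, plus strand) forms a dimer with LEO1 within the complex. It was at 54.2 and 74.4 CPM in 10E and 60.4 and 51.4 CPM in 11D under EtOH, at 152 CPM in 10E and 132 and 124 CPM in 11D under IAA, and at 51.1, 54.4 and 56.5 CPM in untagged cells. The groups were apart by more than the spread within either (1.21 ± 0.11, FDR 2.09e-07). Leo1 itself gave a higher call close to the threshold (66.3 ± 3.17 and 79.2 ± 8.36 CPM, 0.26 ± 0.10, FDR 0.0448), and its libraries overlapped. That call was lost under 9 of 16 alternatives, among them the fits without 10E EtOH replicate 1 (0.22) or 2 (0.27), the 10E IAA library (0.20), 11D replicate 1 of EtOH (0.22) or 11D replicate 2 of IAA (0.23). Rtf1, for the subunit that stimulates histone H2B ubiquitination, did not pass (106 ± 3.72 and 115 ± 7.12 CPM, 0.10, FDR 0.359), except on library totals (0.43). Cdc73 encodes the tumour suppressor parafibromin and gave a lower call close to the threshold. It was at 142 and 159 CPM in 10E and 131 and 164 CPM in 11D under EtOH, at 115 CPM in 10E and 136 and 130.2 CPM in 11D under IAA, and at 222, 189 and 176 CPM in untagged cells. EtOH and IAA overlapped for Cdc73 (-0.26 ± 0.10, FDR 0.0429), and the untagged libraries were above both. The Cdc73 call was lost under 9 alternatives, among them DESeq2 (-0.22) and the fits without 10E EtOH replicate 2 (-0.20), the 10E IAA library (-0.16) and without 11D replicate 2 of EtOH (-0.18) or of IAA (-0.24), and its sign turned on library totals (0.07).

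The sequences before the start sites of genes of this complex are shown as description, and a link to their unequal responses was not tested. They come from RefSeq on GRCm38.p6, which had an entry for 4 of the 5 genes (not for Ctr9), and run 5′ to 3′ on the strand of the gene up to its first annotated base. Capitals mark matches, on either strand, to the GC box GGGCGG, the CCAAT box CCAAT and the ETS core CGGAAG. The windows are chr7:28392746-28392950 (plus strand) for Paf1, chr9:75441274-75441523 (plus strand) for Leo1, chr2:119674818-119675067 (plus strand) for Rtf1 and chr1:143702894-143703143 (minus strand) for Cdc73.
Paf1: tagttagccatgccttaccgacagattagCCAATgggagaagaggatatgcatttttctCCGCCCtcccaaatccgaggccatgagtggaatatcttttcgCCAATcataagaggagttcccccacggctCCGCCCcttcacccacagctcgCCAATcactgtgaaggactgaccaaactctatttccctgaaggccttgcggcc
Leo1: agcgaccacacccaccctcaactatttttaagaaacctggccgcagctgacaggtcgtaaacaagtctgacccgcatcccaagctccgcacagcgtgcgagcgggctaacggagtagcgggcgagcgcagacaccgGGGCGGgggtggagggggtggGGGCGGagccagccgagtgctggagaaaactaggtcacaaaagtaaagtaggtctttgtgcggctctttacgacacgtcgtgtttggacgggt
Rtf1: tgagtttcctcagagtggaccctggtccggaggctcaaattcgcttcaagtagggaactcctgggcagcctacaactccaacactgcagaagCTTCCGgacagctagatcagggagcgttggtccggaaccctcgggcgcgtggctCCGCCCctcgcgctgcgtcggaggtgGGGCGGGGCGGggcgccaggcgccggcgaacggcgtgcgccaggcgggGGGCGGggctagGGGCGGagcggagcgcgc
Cdc73: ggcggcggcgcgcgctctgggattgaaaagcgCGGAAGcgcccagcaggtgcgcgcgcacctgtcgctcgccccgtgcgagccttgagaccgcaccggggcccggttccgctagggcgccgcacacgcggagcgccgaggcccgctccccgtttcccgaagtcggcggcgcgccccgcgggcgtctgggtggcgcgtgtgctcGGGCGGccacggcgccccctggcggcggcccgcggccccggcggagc
The 250 bases before the RefSeq start held 11 CpG dinucleotides in Paf1, 21 in Leo1, 28 in Rtf1 and 47 in Cdc73. Paf1 alone of the 4 had CCAAT boxes (3) and Cdc73 had the most CpG.

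ELL proteins raise the catalytic rate of the polymerase and EAF proteins bind and stimulate them. All 5 of these genes passed, 4 upward and 1 downward, with a median of 0.72. The paralogues Ell and Ell2 moved in opposite directions. Ell (chr8:70539457-70592858, plus strand) gave 55.0 and 49.8 CPM in 10E and 47.9 and 41.2 CPM in 11D under EtOH, 73.3 CPM in 10E and 74.7 and 67.5 CPM in 11D under IAA, and 34.5, 40.1 and 37.5 CPM in untagged cells. Its IAA libraries were the highest and its untagged libraries the lowest, with no overlap between the 3 groups (0.59 ± 0.11, FDR 0.000245). Ell2 (chr13:75706757-75772364, plus strand) gave 72.9 and 84.8 CPM in 10E and 90.6 and 104 CPM in 11D under EtOH, 47.6 CPM in 10E and 46.5 and 52.6 CPM in 11D under IAA, and 94.7, 74.3 and 85.8 CPM in untagged cells. Here the IAA libraries lay below all others (-0.89 ± 0.11, FDR 5.24e-06). Ell3 had few counts, at 3.14 and 1.88 CPM in 10E and 2.49 and 0.807 CPM in 11D under EtOH, 5.04 CPM in 10E and 3.14 and 2.65 CPM in 11D under IAA, and 1.16, 0.843 and 1.40 CPM in untagged cells, which rest on 5 to 41 counts a library. The groups overlapped (1.06 ± 0.38, FDR 0.0238). For Ell3 the call was lost under 6 of 16 alternatives, among them DESeq2 (1.06) and the fits without the 10E IAA library (1.12) and without 11D replicate 2 of EtOH (0.73) or of IAA (1.13). In addition, 65.6% of the exonic bases of Ell3 overlap Serinc4 on the same strand, so its counts are uncertain. Of the partners, Eaf1 (chr14:31494399-31509858, plus strand) was at 103 and 106 CPM in 10E and 98.7 and 90.8 CPM in 11D under EtOH, at 161 CPM in 10E and 169 and 162 CPM in 11D under IAA, and at 95.1, 97.4 and 93.1 CPM in untagged cells. The IAA libraries were tightly grouped above the rest (0.72 ± 0.09, FDR 5.25e-06). Eaf2 (chr16:36792884-36875003, minus strand) had the highest fold change of the 36 genes and the lowest level. It was at 0.524 and 0.494 CPM in 10E and 1.87 and 1.25 CPM in 11D under EtOH, at 3.51 CPM in 10E and 3.42 and 5.30 CPM in 11D under IAA, and at 0.926, 0.674 and 0.466 CPM in untagged cells. The IAA libraries were all above the others (2.03 ± 0.37, FDR 0.000229), on 4 to 14 counts per EtOH library and 12 to 82 per IAA library.

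**Figure D2:**
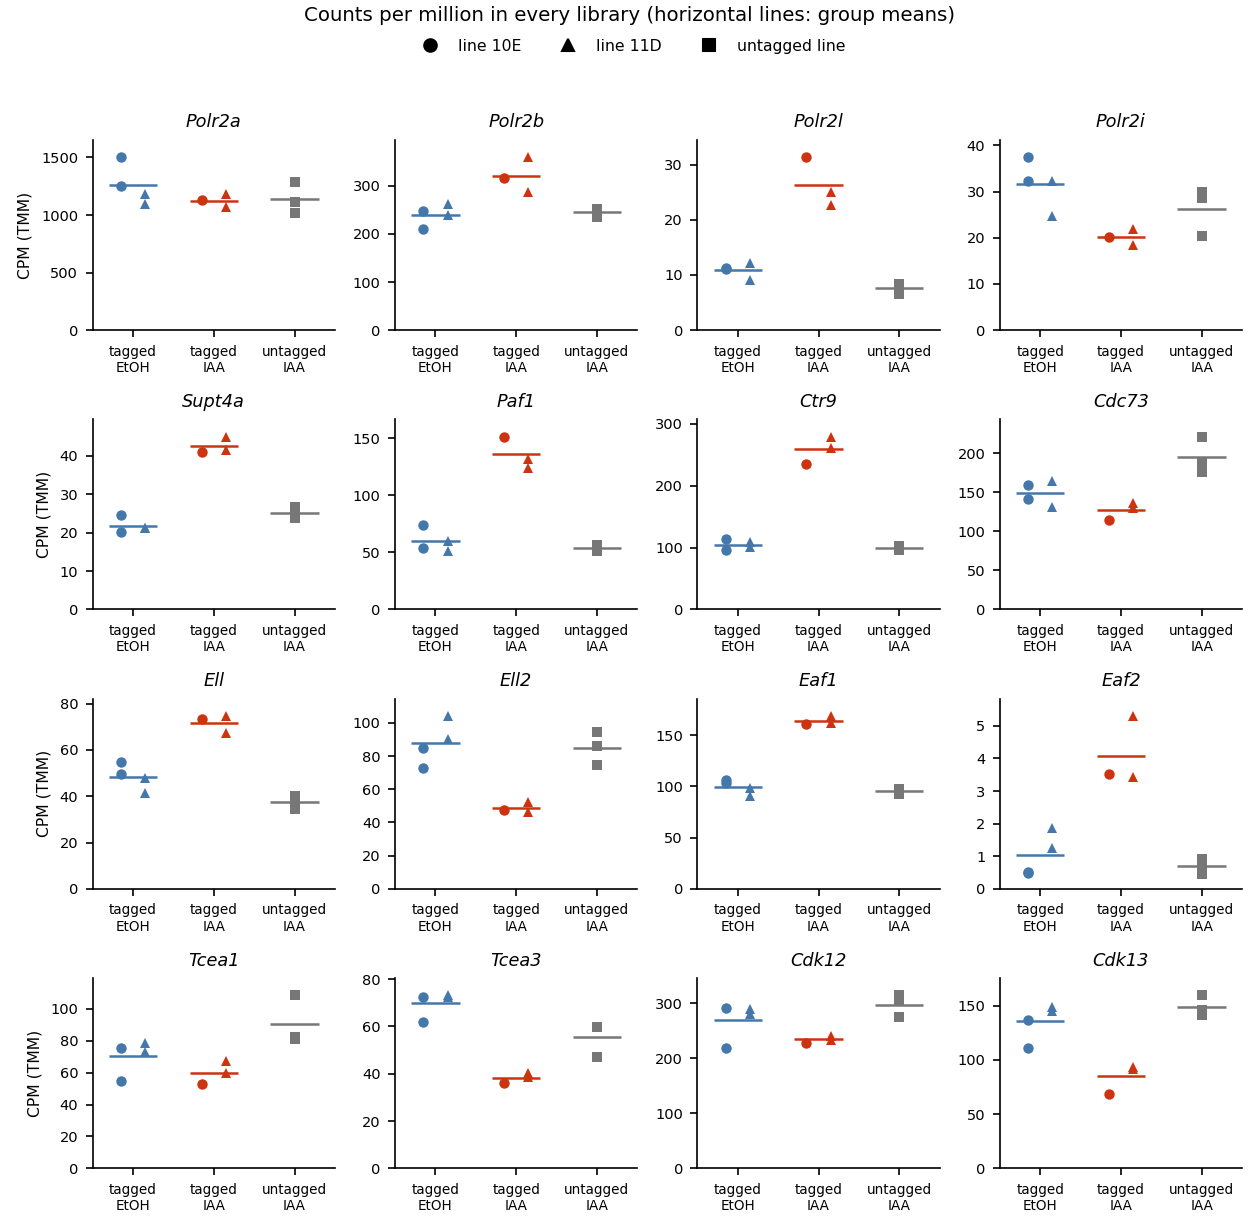
CPM (scaled by TMM, linear axes from 0) of 16 genes in each of the 10 libraries, by group (blue EtOH and red IAA in the tagged lines, grey untagged IAA; circles 10E, triangles 11D, squares untagged; horizontal lines are group means). Polr2a, Cdc73, Tcea1 and Cdk12 overlap between EtOH and IAA, whereas the red points of Ctr9 (235 to 279.6) and Eaf1 (161 to 169) lie above all others and those of Ell2 (46.5 to 52.6) below.

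NELF is the complex that holds the polymerase in the paused state together with DSIF, and no gene of its 4 subunits passed in edgeR (0 of 4, 0 of 4 at an unadjusted p under 0.05, and 0 of 4 with DESeq2). Log2 fold changes were -0.15 for Nelfa, 0.01 for Nelfb, -0.10 for Nelfcd and -0.13 for Nelfe, with a median of -0.12 and SEs of 0.10 to 0.11. Nelfa, with the smallest FDR of the 4 (0.27), gave 78.4 and 80.3 CPM in 10E and 70.0 and 68.8 CPM in 11D under EtOH, 60.5 CPM in 10E and 76.1 and 65.5 CPM in 11D under IAA, and 57.6, 69.1 and 59.6 CPM in untagged cells. All 3 groups overlapped. On library totals the values were 0.18 for Nelfa, 0.35 for Nelfb, which then passed, 0.23 for Nelfcd and 0.20 for Nelfe. That scaling raised the median gene by 0.33.

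TFIIS lets a backtracked polymerase cut its transcript and resume, and both of its genes measured here gave lower calls. Tcea3 (chr4:136247729-136274898, plus strand) had the lowest fold change of the 36 genes. It was at 61.9 and 72.4 CPM in 10E and 73.1 and 72.3 CPM in 11D under EtOH, at 36.2 CPM in 10E and 38.8 and 40.2 CPM in 11D under IAA, and at 47.2, 59.8 and 59.7 CPM in untagged cells. The untagged libraries lay between the other groups without touching either (-0.89 ± 0.11, FDR 3.35e-06). Tcea1, the widely expressed paralogue, was at 54.7 and 75.8 CPM in 10E and 72.8 and 78.9 CPM in 11D under EtOH, at 52.9 CPM in 10E and 67.5 and 59.7 CPM in 11D under IAA, and at 109, 81.4 and 82.3 CPM in untagged cells. EtOH and IAA overlapped (-0.29 ± 0.12, FDR 0.0476). The call on Tcea1 was lost under 11 of 16 alternatives, among them DESeq2 (-0.25) and the fits without 10E EtOH replicate 2 (-0.19), the 10E IAA library (-0.27) and without 11D replicate 2 of EtOH (-0.25) or of IAA (-0.22), and its sign turned on library totals (0.04).

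CDK12 and CDK13 are related kinases that phosphorylate the CTD during elongation, each with cyclin K. Cdk13 fell, Ccnk, for the cyclin, rose, and Cdk12 did not pass. Cdk13 (chr13:17710315-17805097, minus strand) gave 111 and 137 CPM in 10E and 149 and 145 CPM in 11D under EtOH, 68.6 CPM in 10E and 91.8 and 93.8 CPM in 11D under IAA, and 159, 146 and 142 CPM in untagged cells. All IAA libraries were below all others (-0.74 ± 0.10, FDR 1.16e-05). Cdk12 gave 219 and 291 CPM in 10E and 289 and 279 CPM in 11D under EtOH, 227 CPM in 10E and 233 and 241 CPM in 11D under IAA, and 303, 314 and 274 CPM in untagged cells. Its lowest library was an EtOH one, 10E replicate 1, and the log2 fold change was -0.23 ± 0.10 (FDR 0.0578). Without that library Cdk12 passed (-0.32, FDR 0.0069), and on library totals its sign turned (0.11). Ccnk rose from 110.2 ± 6.79 to 139 ± 7.78 CPM (0.33 ± 0.09, FDR 0.00656). Without the libraries under 5 M counts, which leaves a single IAA library, that call was lost at a larger estimate (0.41). Setd2 fell from 330.3 ± 37.5 to 262 ± 15.9 CPM (-0.37 ± 0.09, FDR 0.00243), a call lost on library totals (-0.04). The Setd2 call was also lost without the libraries under 5 M counts, at a larger estimate (-0.45) from a single IAA library. Over these 4 genes the median was -0.30.

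Levels of different genes were compared as CPM per kilobase of exon. The length is that of all annotated exons of a gene merged, which can exceed that of the transcripts present. For Polr2i it is 1212 bases in a span of 1.443 kb, and for Cdc73 17613 bases. Ranks and ratios between genes therefore depend on the annotation. In EtOH the order of the means began with Polr2a (178 ± 24.6), Polr2b (51.3 ± 4.73), Tcea3 (50.0 ± 3.83), Supt5 (48.7 ± 3.82) and Supt6 (48.1 ± 4.41), of which the last 4 differed by less than their SDs. It ended with Polr2l (6.59 ± 0.79), Polr2k (5.93 ± 1.00), Ell3 (0.95 ± 0.45) and Eaf2 (0.24 ± 0.15). In IAA, Tcea3 stood at rank 13 of 36 (27.4 ± 1.44), while Supt4a moved from rank 15 to rank 6 (45.0 ± 2.32), Paf1 from 23 to 7 (39.6 ± 4.10) and Ctr9 from 28 to 11 (32.4 ± 2.78). Polr2i went from rank 12 to 25 and Polr2f from 19 to 29.

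A ratio of 2 genes within a library does not change with the scaling, so 14 pairs were set side by side per kilobase of exon. The ratio of Ctr9 to Cdc73 was 1.47 to 1.69 in EtOH, 4.23 to 4.73 in IAA and 0.958 to 1.24 in untagged libraries, and that of Paf1 to Cdc73 was 1.60 to 2.39, 4.88 to 6.76 and 1.18 to 1.64. By contrast, Ctr9 to Paf1 overlapped between EtOH (0.656 to 0.916) and IAA (0.667 to 0.968). Cdc73 was taken as the denominator after its values were seen, so these ratios restate its fold change beside those of Ctr9 and Paf1, and no ratio was taken for Leo1. Ell to Ell2 was 1.25 to 2.38 in EtOH, 4.06 to 5.08 in IAA and 1.15 to 1.71 in untagged libraries. Tcea3 to Tcea1 was 1.98 to 2.44 in EtOH and 1.24 to 1.47 in IAA, but the untagged libraries (0.937 to 1.58) were also all below EtOH and spanned the IAA range. Cdk13 to Cdk12 was 0.410 to 0.454 in EtOH, 0.263 to 0.343 in IAA and 0.406 to 0.458 in untagged libraries. For the small and large partner of DSIF, Supt4a to Supt5, the ratio was 0.432 to 0.493 in EtOH, 0.902 to 0.925 in IAA and 0.578 to 0.755 in untagged libraries. Among polymerase subunits, Polr2b to Polr2a was 0.249 to 0.334 in EtOH and 0.368 to 0.510 in IAA, and the untagged range (0.276 to 0.372) overlapped both. Polr2l to Polr2e was 0.122 to 0.170 in EtOH, 0.396 to 0.566 in IAA and 0.114 to 0.124 in untagged libraries. Ratios of Supt6 to Iws1 (2.89 to 3.84 in EtOH, 3.33 to 4.12 in IAA) and within NELF (Nelfa to Nelfb 0.894 to 0.978 and 0.767 to 1.00, Nelfe to Nelfcd 0.936 to 1.25 and 0.970 to 1.04) overlapped. Every pair that separated EtOH from IAA holds a called gene, so its ratio restates fold changes from the same libraries. This holds most where the genes were called in opposite directions: Ctr9 and Paf1 to Cdc73, Ell and Eaf1 to Ell2, and Polr2l to Polr2e. How often other gene pairs separate was not counted. The pairs are genes named in the text, several share a gene, and their transcripts say nothing of the amounts of the proteins.

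**Figure D3:**
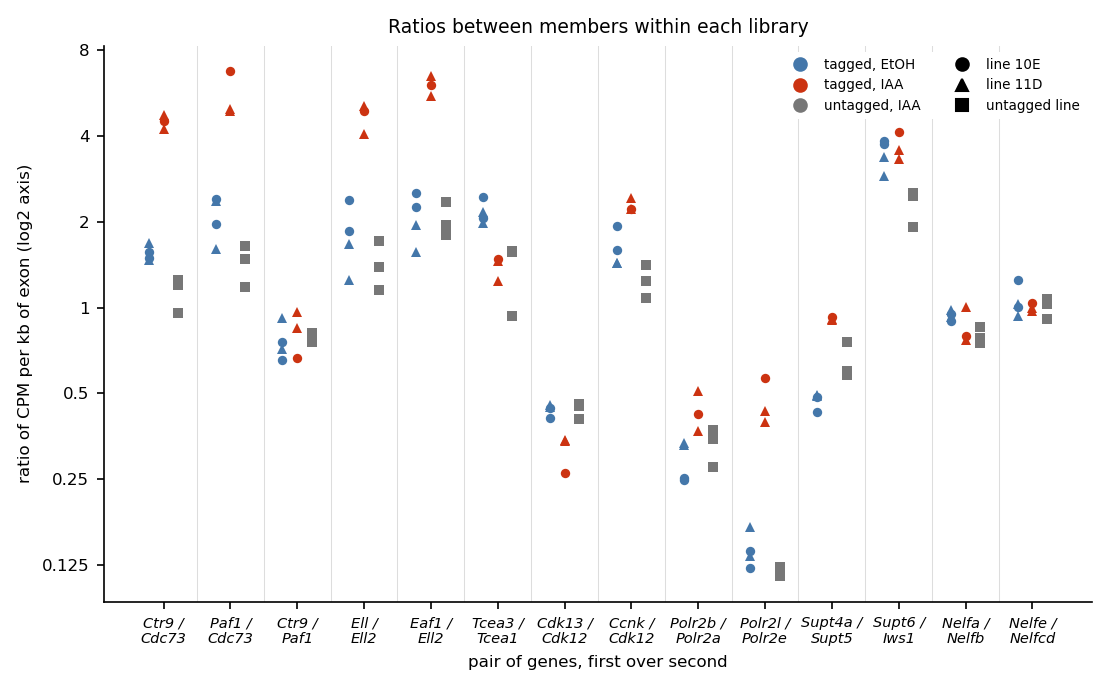
Ratio of CPM per kilobase of exon between pairs of genes in every library (log2 axis; blue EtOH and red IAA in tagged lines, grey untagged IAA; circles 10E, triangles 11D, squares untagged). Red and blue points separate for Ctr9 over Cdc73 (4.23 to 4.73 against 1.47 to 1.69) and Ell over Ell2 (4.06 to 5.08 against 1.25 to 2.38), and overlap for Ctr9 over Paf1 and for both NELF pairs.

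The effect of IAA was compared between lines 10E and 11D. All 21 genes called over both lines had the same sign in each line, and 5 of the other 15 had opposite signs. The 21 were called from these same libraries, which favours a shared sign, so this agreement is no separate support. In 10E, 8 of the 36 genes were higher and 5 lower (17.1% and 18.3% of all genes), and in 11D 11 were higher and 5 lower (23.1% in each direction). Both lines called 12 genes, namely 8 higher (Polr2b, Polr2l, Supt4a, Paf1, Ctr9, Ell, Eaf1 and Eaf2) and 4 lower (Polr2i, Ell2, Tcea3 and Cdk13). The share of all genes called in both lines was not counted. No gene passed the test of the difference between the lines in edgeR (0 of 36, 0% of all genes, 0 of 36 at an unadjusted p under 0.05 and 0 of 36 with DESeq2). With 1 IAA library for 10E, that test assumes that it varies like the other groups. Estimates of the difference ranged from -0.42 for Nelfa to 1.06 for Eaf2, the latter with an SE of 0.77, so that differences of this size could not be resolved for the lowest gene. Between the lines under EtOH no gene passed with DESeq2 (0 of 36) or in edgeR (0 of 36, against 3.23% of all genes at the same FDR). At an unadjusted p under 0.05 in edgeR there were 5 of 36, and the share of all genes at that threshold was not counted. The smallest FDR was 0.0932, for Nelfe, at a log2 difference of 10E from 11D of 0.45.

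**Figure D4:**
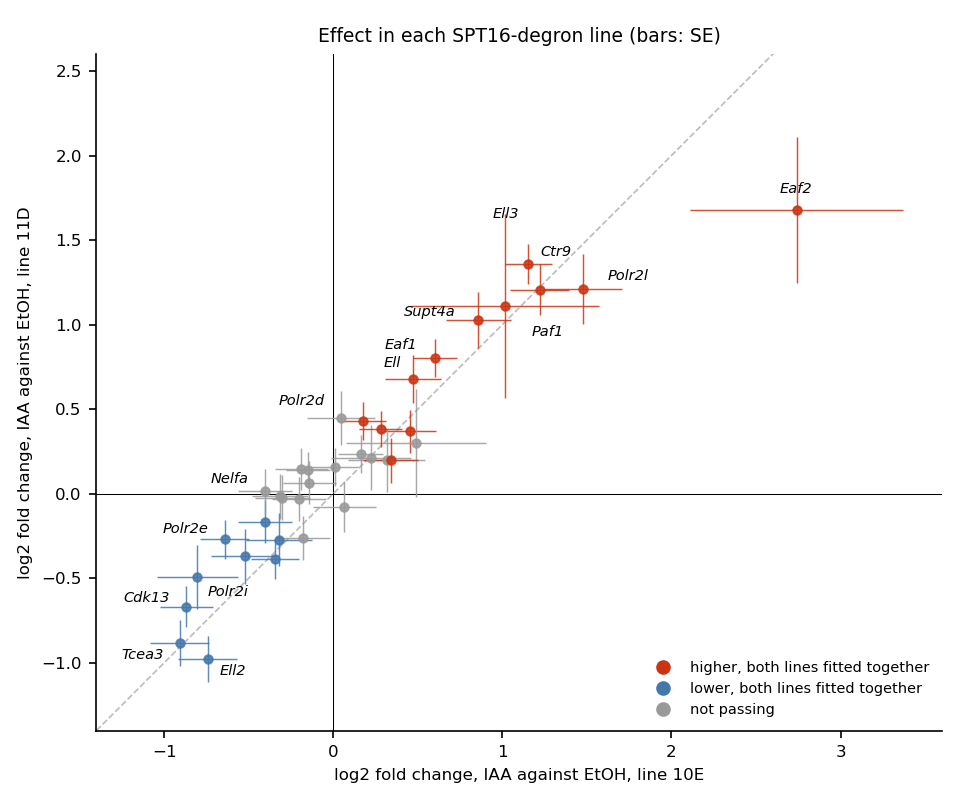
Log2 fold change of IAA against EtOH in line 10E (horizontal) and line 11D (vertical) for the 36 genes, with SE bars; red, blue and grey mark genes higher, lower and not passing when both lines are fitted together, and the dashed line marks equal effects. Red points lie in the upper right and blue points in the lower left part, and Eaf2 (2.74 in 10E and 1.68 in 11D) lies farthest from the dashed line with the longest bars.

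Tagged cells under IAA were also compared with untagged cells under IAA, where the agent is the same and the cell line differs. Of the 36 genes, 15 were higher and 7 lower (27.9% and 27.8% of 17439 genes; medians 0.07 and 0.02). All 12 genes higher against EtOH were higher here, and 6 of the 9 lower genes were lower. This comparison shares its IAA libraries with that against EtOH, so the 2 sets of calls are not independent. The share of all genes called alike in both comparisons was not counted. On library totals, 23 were higher and 4 lower (39.6% and 17.2% of all genes), with a shift of the median gene of 0.30. Ctr9 (1.34 ± 0.10), Paf1 (1.36 ± 0.12), Polr2l (1.80 ± 0.18), Eaf2 (2.65 ± 0.43) and Ell (0.94 ± 0.12) were higher with FDRs from 3.81e-08 to 0.000103. Ell2 (-0.80 ± 0.12), Cdk13 (-0.90 ± 0.11), Tcea3 (-0.56 ± 0.13), Setd2 (-0.53 ± 0.10), Tcea1 (-0.64 ± 0.15) and Cdc73 (-0.66 ± 0.12) were lower. The 3 polymerase subunit genes that fell against EtOH did not pass against untagged cells, at -0.41 (FDR 0.0602) for Polr2i, -0.19 (FDR 0.168) for Polr2e and -0.04 (FDR 0.835) for Polr2f. Without untagged replicate 1, however, Polr2i (-0.56, FDR 0.0102) and Polr2e (-0.32, FDR 0.016) passed as lower. Polr2i also passed without 11D EtOH replicate 1 (-0.43), without a filter on low counts (-0.45) and without the libraries under 5 M counts (-0.66). Polr2d (0.38, FDR 0.033), Supt5 (0.23, FDR 0.0486), Rtf1 (0.25, FDR 0.0347) and Cdk12 (-0.35, FDR 0.0125) passed here and not against EtOH. Each of these 4 calls was lost on leaving out certain single libraries, with log2 fold changes of 0.29 to 0.38 for Polr2d (11D IAA replicate 1, untagged replicates 1 or 3), 0.15 to 0.27 for Supt5 (any 11D library or any untagged one), 0.20 to 0.28 for Rtf1 (11D EtOH replicate 1, any 11D IAA or any untagged library) and -0.32 for Cdk12 (untagged replicate 2). Without a filter on low counts, Polr2d (0.34), Supt5 (0.19) and Rtf1 (0.20) were lost too, as were Polr2d (0.42) and Rtf1 (0.29) with a term for replicate number. On library totals the lower calls of Cdk12 (-0.06), Tcea3 (-0.27) and Setd2 (-0.23) were lost, and without the libraries under 5 M counts those of Polr2d (0.42), Supt5 (0.26), Rtf1 (0.30), Cdk12 (-0.29) and Ell3 (1.16).

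The tagged lines under EtOH were compared with untagged cells under IAA as a background, and no gene of the 36 passed. In edgeR 0 of 36 were higher and 0 lower (1.27% and 2.29% of all genes at the same FDR). At an unadjusted p under 0.05 there were 12 of 36, and the share of all genes at that threshold was not counted. DESeq2 called Supt6 higher (0.27) and Cdc73 (-0.39) and Iws1 (-0.31) lower, beside 350 higher and 543 lower of 17439 genes. Cdc73 was nearest to the threshold in edgeR (-0.38, FDR 0.0503). It passed on library totals (-0.42), on RLE factors (-0.39), without a filter (-0.37) and without 10E EtOH replicate 2 (-0.43), 11D EtOH replicate 2 (-0.48) or untagged replicate 3 (-0.46). Iws1 passed on library totals (-0.34), Tcea1 without 10E EtOH replicate 2 (-0.49) and Polr2f without 11D EtOH replicate 2 (0.51). Agent, tag and line differ together in this comparison and cannot be told apart, and it shares libraries with both comparisons above. For Polr2f the estimate was 0.40 (FDR 0.0879), and for Tcea3 0.32 (FDR 0.104).

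**Figure D5:**
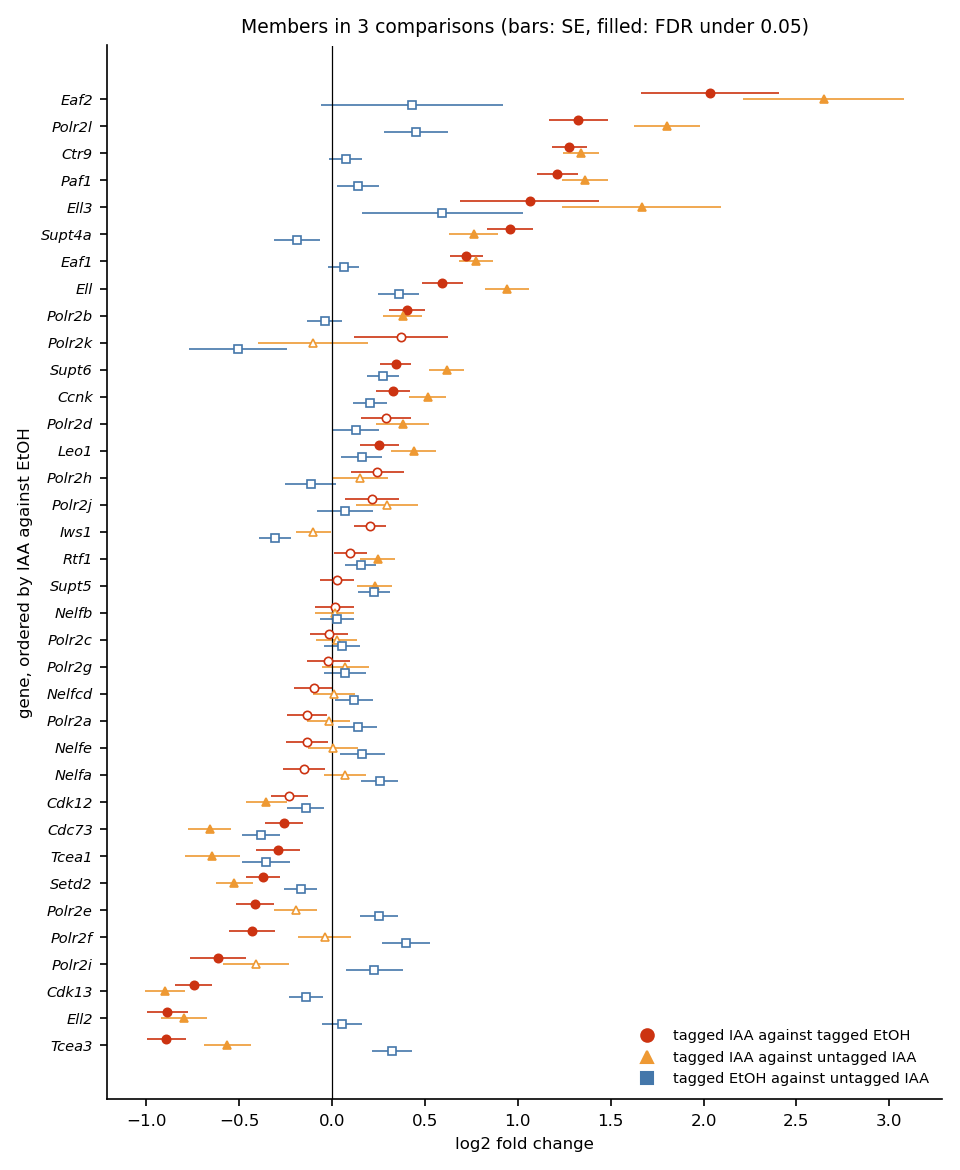
Log2 fold changes with SE bars of the 36 genes in 3 comparisons, ordered by IAA against EtOH (red circles: tagged IAA against tagged EtOH; orange triangles: tagged IAA against untagged IAA; blue squares: tagged EtOH against untagged IAA; filled symbols pass an FDR under 0.05). Blue squares are all open, and for Polr2e, Polr2f and Polr2i the red symbols are filled and the orange ones open (-0.19, -0.04 and -0.41).

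The other genes of the polymerase II pathway were read from 10 lists, beside shares of 29.3% higher and 28.1% lower over all genes. Among 12 pause-release and super elongation complex genes, 1 was higher (Hexim1, for an inhibitor of the pause-release kinase P-TEFb, 1.78 ± 0.14) and 5 lower, among them Aff1 (-1.56 ± 0.10), the scaffold of a super elongation complex (median -0.34). Of 18 general transcription factor genes 3 were higher, among them Gtf2f1 (0.81) and Ercc2 (0.78), 3 were lower, among them Gtf2h4 (-1.08) and Gtf2h3 (-0.31), and 12 did not pass (median -0.10). Among 17 cleavage, polyadenylation and termination genes, 3 were higher, among them Clp1 (0.64) and Cpsf4 (0.52), and 9 lower, among them Pcf11 (-1.31) and Cpsf3 (-1.17), which encode a termination factor and the endonuclease that cuts the transcript (median -0.26). Of 11 CTD phosphatase and CTD binding genes, 2 were higher (Ctdp1 and Rprd1b, at 0.27 and 0.28) and 7 lower, among them Ctdsp2 (-0.67) and Ssu72 (-0.61) (median -0.43). Integrator, which ends short and paused transcripts, had 4 of 14 genes higher, among them Ints13 (0.45) and Ints1 (0.57), and 5 lower, among them Ints6 (-0.69) and Ints3 (-0.61), with a median of 0.04. Polymerase assembly factors gave 3 of 11 higher, among them Gpn3 (0.71) and Pih1d1 (0.41), and 6 lower, among them Uri1 (-1.06) and Rpap1 (-0.97), with a median of -0.43. Of 12 other PAF1 partners and histone modifiers, 3 were higher, among them Wdr61 (0.64), a further PAF1 complex subunit, and Ube2a (0.82), and 5 lower, among them Nsd1 (-1.30) and Ssrp1 (-1.08). In the list of elongin and TFIIS relatives, 3 of the 6 genes tested were higher, among them Eloa (0.74) and Tceanc2 (1.02), and 2 lower (Tceanc at -1.32 and Elob at -0.45).

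Subunits of the other polymerases served as a comparison for the polymerase II genes. For RNA polymerase I, 0 of 8 genes were higher and 6 lower in edgeR (median -0.39; 0 higher and 5 lower with DESeq2, and 2 lower without the 10E IAA library, with a median of -0.29), among them Polr1c (-0.78), whose product polymerase III also uses, and Znrd1 (-0.70). On library totals 2 were higher and 2 lower. Polymerase III gave 3 of 11 higher, among them Polr3f (0.96) and Polr3d (0.74), and 2 lower (Polr3g at -0.47 and Polr3b at -0.26, the latter turning to 0.07 on library totals), with a median of 0.20. The 12 polymerase II subunit genes, shared ones included, stood with 2 higher and 3 lower. The lists for polymerases I and III leave those shared genes out, so these tallies cover unlike sets. The 7 genes for subunits of polymerase II alone gave 1 higher and 1 lower. Differences between the 3 polymerases were not tested. Without the 10E IAA library alone, lower calls went from 9 to 5 for cleavage and termination, from 7 to 4 for CTD phosphatases, from 5 to 3 for Integrator, from 3 to 1 for general transcription factors, and from 2 to 1 for elongin and for polymerase III. Calls over all genes fell in that fit too. They went from 5247 higher and 5034 lower of 17904 to 3888 and 4070 of 16548. The 3 lower general transcription factor calls were also 1 with DESeq2 and without 10E EtOH replicate 2, and the 2 of polymerase III were 1 with DESeq2, on RLE factors and without 10E EtOH replicate 2, 11D EtOH replicate 2 or 11D IAA replicate 1. Both higher CTD phosphatase calls were lost without a filter on low counts (0.24 for Ctdp1 and 0.25 for Rprd1b), without 11D EtOH replicate 2 (0.19 and 0.23), and without replicate 1 (0.27 and 0.23) or 2 (0.25 and 0.31) of 11D IAA. Rprd1b was lost too without replicate 1 of 10E EtOH (0.22) or of 11D EtOH (0.27). The 1 higher pause-release call became 2 without 10E EtOH replicate 2 or 11D EtOH replicate 2. On library totals, where 43.1% of all genes were higher and 15.9% lower, the split of higher to lower calls was 5 to 4 for pause release, 7 to 1 for general transcription factors, 5 to 5 for cleavage and termination, 3 to 2 for CTD phosphatases, 8 to 2 for Integrator, 5 to 4 for assembly, 5 to 3 for other PAF1 partners, 3 to 1 for elongin and 7 to 0 for polymerase III. Exonic overlap with other genes makes the counts of Ercc2 (42.7% of bases), Wdr61 (33.9%), Tceanc2 (21.2%), Gpn3 (19.2%), Ssu72 (15.1%) and Eloa (10.8%) less certain, as it does for Polr2c (18.1%), Polr2j (15.9%) and Polr2f (9.44%).

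Across the 36 genes, the log2 fold change and the genomic span of the gene had a Spearman rho of -0.21, against -0.14 over 17509 genes with a known span; genes are not independent replicates. Of the 36 genes, 28 had a RefSeq promoter entry, and 22 of these held a GC box in the 250 bases before the start, against 33.0% of 27025 promoters. The ETS core was present in 10 of 28 (13.8% of all), the CCAAT box in 10 (34.5%), the TATA box TATAAA in 3 (13.0%), the cyclic AMP response element TGACGTCA in 1 (Ell2; 1.60%) and the E-box CACGTG in none (6.04%). Among the 11 higher genes with an entry 7 had a GC box, and among the 8 lower genes 7. The median number of CpG dinucleotides was 16 in promoters of the higher and 25.5 in those of the lower genes, against 21.5 for the 28 and 6 for all promoters. Rows whose names mark them as copies of members held few counts over the 10 libraries (27 for Polr2k-ps, 33 for Supt4b and 101 for Tcea1-ps1). They were picked by name, and their sequences were not compared. How reads that match several genes were counted is not given, so these counts do not show whether the members' own counts are affected.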

How the data were processed

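Read counts per gene symbol were used as the authors deposited them, without normalization. STAR, deepTools and mm10 appear in the submitters' processing notes. The sources used here do not give versions, counter, annotation or strand setting, so genes that overlap others are uncertain. The authors' deposited comparison table gives a log2 fold change with its SE and an adjusted p-value per gene, per the file headers, and was used for description only.

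Counts were tested with edgeR 4.0.16 in R 4.3.3 (quasi-likelihood F test, TMM factors, filterByExpr, FDR under 0.05 over all genes tested). The 7 tagged libraries entered the fit of IAA against EtOH, with an additive term for line. Effects per line and the difference between lines used 1 coefficient per line and treatment, and comparisons with untagged cells were fitted on 10 libraries, the mean of both tagged lines against the untagged line. SEs were taken as the size of the log2 fold change over the root of its F statistic. Levels per kilobase used the merged length of all exons of a gene in GENCODE's annotation of GRCm38. The fits were tested on simulated data. No pair of replicates was a duplicate, since chi-square values over their degrees of freedom were 2.84 to 25.5.

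The 36 genes, the lists and the rules were chosen with earlier results of these data known. Values in every library are given for Polr2a, paralogues, the 5 highest and 5 lowest called genes and the smallest FDR of each role; other pathway genes are those with the smallest FDR, up to 2 per list and direction, of which 1 is not reported here. Cdc73 was added after its values were seen. Alternatives were DESeq2 1.42.0, library totals, RLE factors, no filter on low counts, a replicate block, all libraries in 1 fit, no line term, each library left out, and fits without certain libraries. Figures used matplotlib 3.10.9, and tables pandas 2.3.3 in Python 3.11.15.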

Additional observations from a re-analysis of the deposited data

Results flagged for a closer look

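Among the 4 EtOH libraries, 4 of the 36 genes had 1 library far from the other 3, with a gap to its nearest neighbour that took up more of the range than Dixon's 95% value for 4 samples, which chance passes in about 1 of 20 groups. Polr2f was at 39.4 CPM in 11D EtOH replicate 2 and at 52.9 to 55.3 CPM in the other EtOH libraries. Iws1 was at 165 CPM in the same library, above the rest. Tcea3 was at 61.9 CPM in 10E EtOH replicate 1 and at 72.3 to 73.1 CPM in the others, and Cdk12 was at 219 CPM in that library and at 279 to 291 CPM in the others. Without 11D EtOH replicate 2 Iws1 passed against EtOH (0.25, FDR 0.042), and without 10E EtOH replicate 1 Cdk12 passed (-0.32, FDR 0.0069).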

How the results depend on the processing

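Against EtOH, the 12 higher and 9 lower calls became 22 and 3 on library totals (43.1% and 15.9% of all genes). The fit without the libraries under 5 M counts leaves a single IAA library (11D replicate 2), assumed to vary like the EtOH libraries. Its median log2 fold change over the 36 genes was 0.16, and its calls are not counted here. With 1 library left out in turn, 10 to 13 were higher and 4 to 10 lower, the 4 without the 10E IAA library. Over all genes these fits gave 3888 to 4907 higher and 4016 to 5085 lower, of 16194 to 18314 tested. The fit with no library left out gave 5247 and 5034 of 17904. Against untagged IAA, the 15 and 7 calls became 23 and 4 on library totals (39.6% and 17.2% of all genes). With 1 library left out they were 12 to 15 and 6 to 9. Over all genes those fits gave 3913 to 4939 higher and 4233 to 4983 lower, against 4865 and 4843 of 17439 with none left out. For EtOH against untagged IAA, DESeq2 called 1 higher and 2 lower, library totals 2 lower, RLE factors and no filter 1 lower each, and fits with 1 library left out 0 to 1 higher and 0 to 2 lower. Over all genes, DESeq2 called 350 higher and 543 lower of 17439, library totals 241 and 715, and RLE factors 234 and 425. No filter gave 643 and 723 of 32892, and fits with 1 library left out 17 to 509 and 66 to 546. The difference between lines and the lines under EtOH gave 0 in every setting run; the former was not run without the 10E IAA library, its only one. Line 11D alone has both replicate numbers in both arms. Its same-numbered libraries deviated in the same direction to a degree (correlation of 0.25 over genes), and replicate 1 had fewer counts in both arms. Whether the numbers mark pairs was not settled, and the main fit left them out. With a replicate block, 13 were higher and 7 lower against EtOH (19 calls shared), 13 and 7 against untagged IAA, and 0 in the other comparisons. Over all genes the block gave 5047 higher and 4872 lower of 17904 against EtOH, and 3872 and 4139 of 17439 against untagged IAA. For EtOH against untagged IAA it gave 142 and 274. Under that block Iws1 passed against EtOH (0.23, FDR 0.03) and Ctdp1 did not (0.27, FDR 0.0534), and Polr2d (0.42, FDR 0.0685) and Rtf1 (0.29, FDR 0.0608) did not pass against untagged IAA. Signs turned on library totals for Polr2a (0.20), Polr2c (0.32), Polr2g (0.31), Cdc73 (0.0728), Nelfa (0.18), Nelfcd (0.23), Nelfe (0.20), Tcea1 (0.0438), Cdk12 (0.11), Gtf2h3 (0.0268) and Polr3b (0.0681). They also turned with DESeq2 for Polr2c (0.0205) and Polr2g (0.0184), with RLE factors for Polr2c (0.0227) and Polr2g (0.0189), without a filter for Supt5 (-0.0076) and Nelfb (-0.019), with the replicate block for Polr2g (0.018), with all libraries in 1 fit for Polr2g (0.0037) and Nelfb (-0.013), without a line term for Nelfb (-0.015), and without the libraries under 5 M counts for Nelfcd (0.0051) and Nelfe (0.098). With 1 library left out, Polr2c ranged from -0.065 to 0.069, Polr2g from -0.076 to 0.083, Supt5 from -0.016 to 0.14, Nelfa from -0.24 to 0.019 and Nelfb from -0.042 to 0.15. Apart from Cdc73 and Tcea1, none of these was called among the 36 genes, and the cause was not tested. Depth limits Eaf2, Ell3 and Polr2k most, which had the fewest counts.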
